A study of Mus musculus with 8 samples.

Results

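The Hox cluster genes are homeobox transcription factors that lie side by side in 4 chromosomal clusters, A to D. All probe sets of a mouse array whose only annotated gene symbol was a Hox cluster symbol were taken, and each gene was followed through the brightest of its probe sets that were called present on 2 or more of the 8 arrays (or, where none was, its brightest). For Hoxa9 and Hoxc5 a brighter probe set did not reach that number of arrays. This gave 33 genes on 48 probe sets, out of 18193 genes with an unambiguous symbol. A gene was tested when it had such a probe set, which left 27 Hox genes among the 14027 genes tested, and the 6 others are given as undetected.

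The study asked how the isoforms of Sall4, a zinc finger transcription factor of embryonic stem (ES) cells, differ in their effect on gene expression. Every group consisted of mouse CJ7 ES cells exposed to concentrated lentivirus for 24 h with polybrene at 2.5 mcg/mL, moved to medium with LIF and puromycin at 2 mcg/mL, and collected 48 h after infection. Sall4-depleted cells received an shRNA that targets both isoforms. Sall4a-only cells received that shRNA and a cDNA of Sall4a that the shRNA does not target, and Sall4b-only cells received the shRNA with the matching cDNA of Sall4b. Control cells received a lentivirus without an shRNA, so that the effect of carrying an shRNA and the effect of less Sall4 cannot be told apart. Each group had 2 arrays labelled as biological replicates. How the cultures were separated is not described, and the p-values cover only the array-to-array spread, which may be technical. The number of arrays limits the precision.

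Hox genes are used along the body axis in the order in which they lie in a cluster: genes of low paralog number act in the hindbrain and neck, central genes in the trunk, and genes of high paralog number in the lumbar, sacral, tail and distal limb regions. Their proteins bind DNA together with TALE homeodomain cofactors of the Pbx, Meis and Pknox families. In undifferentiated ES cells most Hox genes are kept at a low level by Polycomb complexes, and retinoic acid is a classical inducer. Paralog groups 1 to 3 are called anterior here, 4 to 8 central and 9 to 13 posterior.

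The sequences of 3 neighbouring genes of the D cluster, Hoxd10, Hoxd9 and Hoxd8, are shown because these genes lie next to each other and the order of their group means differed, although no difference passed its test. Each is the stretch of 250 bases before the annotated start in RefSeq, build GRCm38.p6, on the plus strand, 5′ to 3′, with CpG dinucleotides in capitals. The Hoxd10 stretch lies at chr2:74691641-74691890, the Hoxd9 stretch at chr2:74697513-74697762 and the Hoxd8 stretch at chr2:74704365-74704614.
Hoxd10: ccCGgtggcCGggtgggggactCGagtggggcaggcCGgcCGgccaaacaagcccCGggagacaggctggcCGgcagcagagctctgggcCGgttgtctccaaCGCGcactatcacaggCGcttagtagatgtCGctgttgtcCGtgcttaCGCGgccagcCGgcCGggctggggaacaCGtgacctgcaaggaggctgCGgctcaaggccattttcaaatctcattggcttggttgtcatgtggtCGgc
Hoxd9: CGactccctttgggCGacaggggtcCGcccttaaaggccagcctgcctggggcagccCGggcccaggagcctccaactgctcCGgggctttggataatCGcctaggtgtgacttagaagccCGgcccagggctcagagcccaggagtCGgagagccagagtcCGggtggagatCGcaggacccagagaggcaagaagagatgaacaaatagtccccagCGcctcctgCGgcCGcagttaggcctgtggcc
Hoxd8: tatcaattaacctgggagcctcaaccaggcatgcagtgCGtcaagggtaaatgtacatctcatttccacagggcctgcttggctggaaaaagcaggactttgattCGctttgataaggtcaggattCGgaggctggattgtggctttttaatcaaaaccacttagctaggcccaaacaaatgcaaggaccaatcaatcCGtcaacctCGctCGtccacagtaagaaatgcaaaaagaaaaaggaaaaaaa
Hoxd10 has 20 CpG dinucleotides in this window, Hoxd9 has 13 and Hoxd8 has 6. The RefSeq promoter table held 21 such windows for 19 of the 33 genes, with a median of 13 CpG against 6 over all 32851 windows of the table. Both strands were searched for a few motifs, with overlapping matches counted. The CCAAT box stood in 52.4% of the Hox windows against 33.8% of all windows, and it is found in the windows of Hoxd10 and Hoxd8. TATAAA stood in 9.52% (2 of 21 windows) against 12.4%. TGATNNAT, the form bound by Hox and Pbx proteins together, stood in 14.3% (only 3 of 21 windows) against 7.68%. AGGTCA, a half-site shared by retinoic acid receptors and other nuclear receptors, stood in 23.8% of Hox windows (5 of 21) against 14.0% of all windows. Hoxd10 and Hoxd8 hold it, and paired half-sites were not searched for. The AT-rich run AATAT stood in 9.52% (2 of 21 windows) against 23.3%, and none of the 3 printed windows holds it. The median GC content was 59.2% in the Hox windows and 52.4% in all windows. These are matches of letters only, on few Hox windows, and the differences in share were not tested.

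Over the whole series the intensities ran from 9.71 to 34525, and the share of probe sets called present lay between 62.1% and 66.5% on each array. Sall4 itself was lower wherever the shRNA was present, though only in part. Its brighter probe set read 13.33 and 13.36 log2 in Sall4-depleted cells, 13.14 and 13.16 in Sall4a-only cells and 13.22 and 13.28 in Sall4b-only cells, against 13.75 and 13.88 in control cells. A second probe set read 7.10 and 7.29, 7.25 and 7.31 and 7.17 and 7.72 in those groups, against 8.38 and 8.50 in control cells. The labels do not place these probe sets relative to the shRNA target and the added cDNAs, so they do not measure the added isoforms apart from the endogenous gene. All 14 pluripotency markers looked up, Pou5f1, Nanog and Sox2 among them, were called present on every array. The 2 Sall4a-only arrays were the least alike of any replicate pair, with a correlation of 0.968 over all tested genes against 0.986 to 0.994 for the other pairs. In bulk RNA of this kind, fewer cells that express a gene and less RNA per cell cannot be told apart.

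Hox genes were detected in all 4 clusters and at all 3 positions. Of the 33 genes, 13 were called present on all 8 arrays through the probe set followed, and these were Hoxa10 in cluster A, Hoxb3, Hoxb4, Hoxb9 and Hoxb13 in cluster B, Hoxc4, Hoxc10 and Hoxc13 in cluster C, and Hoxd1, Hoxd8, Hoxd9, Hoxd10 and Hoxd13 in cluster D. By position this was 2 of 7 anterior, 3 of 12 central and 8 of 14 posterior genes. Hoxa3 was called present on 3 arrays through its probe set, but a dimmer one that shares probes between transcripts was present on all 8, and counting any probe set of a gene gives 14 genes and 3 of 7 anterior ones. The 6 undetected genes were Hoxa2, present on a single Sall4b-only array, and Hoxa4, Hoxa13, Hoxb7, Hoxd11 and Hoxd12, present on none. Their log2 intensities ranged from 4.22 to 5.41 for Hoxa2, 4.93 to 5.39 for Hoxa4, 5.13 to 5.40 for Hoxa13, 4.47 to 4.94 for Hoxb7, 5.30 to 6.27 for Hoxd11 and 6.53 to 6.97 for Hoxd12, and so bound these genes only from above. The other 14 tested genes, Hoxa3 included, were called present on between 2 and 7 arrays through the probe set followed. The number of Hox genes called present was 18 and 19 on the Sall4-depleted arrays, 18 and 19 on the Sall4a-only arrays, 15 and 23 on the Sall4b-only arrays and 19 and 21 on the control arrays. The 2 Sall4b-only arrays thus held both the lowest and the highest number, and the groups overlapped.

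**Figure D1:**
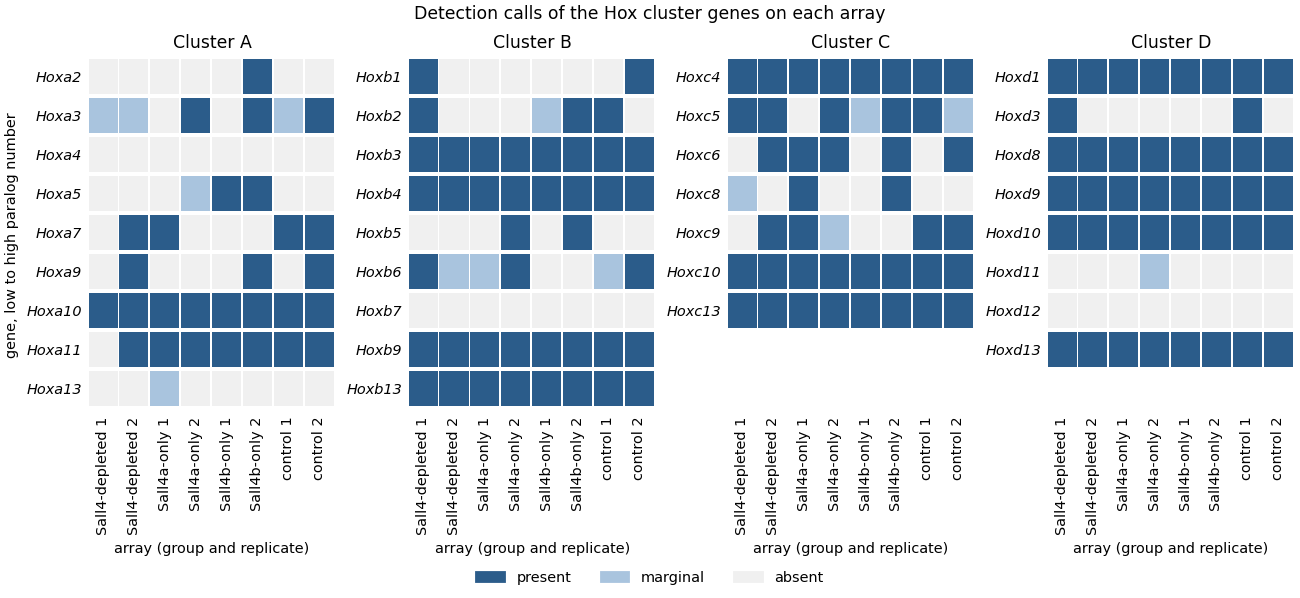
Detection call (present, marginal or absent) of each of the 33 Hox genes, in rows by paralog number within each cluster, on each of the 8 arrays in columns. Rows filled from end to end are the 13 genes present on all arrays through the probe set followed; Hoxa4, Hoxb7 and Hoxd12 are absent on every array.

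The anterior genes overlapped with control in the 3 other groups, except Hoxd3 in Sall4b-only cells. Hoxd1, which acts in the wiring of mouse sensory neurons, had log2 intensities of 4.99 and 5.32 in Sall4-depleted cells, 5.69 and 6.46 in Sall4a-only cells, 5.86 and 6.12 in Sall4b-only cells and 4.85 and 6.54 in control cells. The 2 control arrays spanned all 6 others, although both Sall4-depleted arrays lay below all 4 arrays of the single-isoform groups. Hoxb3, a hindbrain and neck gene, had log2 intensities of 7.07 and 6.80 in Sall4-depleted cells, 6.64 and 7.20 in Sall4a-only cells, 7.08 and 8.09 in Sall4b-only cells and 7.14 and 7.01 in control cells. A single Sall4b-only array stood above the rest, and the other lay among them. The other tested anterior genes, Hoxa3, Hoxb1, Hoxb2 and Hoxd3, which pattern the hindbrain, pharyngeal arches or upper neck, differed from control by -0.52 to 0.42 log2, and the value for Hoxd3 in Sall4b-only cells, where it was not called present, was -0.14.

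Among the central genes, Hoxa5 and Hoxc8 separated Sall4b-only from control arrays with higher values, and Hoxa7, Hoxb4, Hoxb6 and Hoxc4 with lower ones. Hoxa5, which is needed for the mouse trachea and lung, had log2 intensities of 6.27 and 6.14 in Sall4-depleted cells, 6.24 and 6.27 in Sall4a-only cells, 6.63 and 6.69 in Sall4b-only cells and 6.03 and 6.23 in control cells. Both Sall4b-only arrays lay above the 6 others, and of those only the Sall4a-only and control arrays did not overlap each other. The gene was called present on the Sall4b-only arrays alone, so it passed the filter only through the group where it was high, and some probes of its probe set can match unrelated sequences. A dimmer Hoxa5 probe set, called present on no array, did not show the higher values. It read 4.94 and 5.14 log2 in Sall4b-only cells and 5.16 and 4.93 in control cells. Hoxc8, a gene of the brachial spinal cord and thorax, had log2 intensities of 4.25 and 4.05 in Sall4-depleted cells, 4.61 and 4.35 in Sall4a-only cells, 4.26 and 4.47 in Sall4b-only cells and 3.70 and 4.08 in control cells. The control arrays were the lowest group and neither was called present, while 1 array of each single-isoform group was. The gene therefore entered the test only through these 2 arrays, in the groups where it was high, and Hoxa5 and Hoxc8 are called filter-dependent for this reason.

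Hoxb4, known for expanding blood stem cells when overexpressed, had log2 intensities of 9.23 and 8.85 in Sall4-depleted cells, 8.50 and 9.78 in Sall4a-only cells, 8.62 and 8.83 in Sall4b-only cells and 9.15 and 9.41 in control cells. Both Sall4b-only arrays lay below both Sall4-depleted and both control arrays, and the Sall4a-only arrays were the lowest and the highest of the 8. Hoxc4, a neck and upper trunk gene, had log2 intensities of 9.64 and 8.99 in Sall4-depleted cells, 9.73 and 8.87 in Sall4a-only cells, 8.31 and 9.19 in Sall4b-only cells and 9.32 and 9.22 in control cells. Its Sall4b-only arrays lay below the control arrays, by very different amounts. Hoxd8, a trunk gene read by a probe set whose probes are shared by several transcripts, had log2 intensities of 8.47 and 8.44 in Sall4-depleted cells, 7.40 and 8.66 in Sall4a-only cells, 7.53 and 7.73 in Sall4b-only cells and 7.56 and 8.20 in control cells. The Sall4-depleted arrays were close together and above both Sall4b-only and both control arrays. A second probe set that passed the filter read 0.30 log2 for Hoxd8 in Sall4-depleted cells against control, where the brighter one read 0.58. For Hoxb4 in Sall4b-only cells against control the second probe set read -0.02 log2 and the brighter one -0.56, so the probe sets of Hoxb4 disagreed.

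Hoxa7, another trunk gene, had log2 intensities of 7.44 and 7.32 in Sall4-depleted cells, 7.67 and 7.29 in Sall4a-only cells, 7.41 and 7.50 in Sall4b-only cells and 7.69 and 7.53 in control cells. It was called present on both control arrays and on no Sall4b-only array, although its 8 values lay between 7.29 and 7.69 log2. The other tested central genes, Hoxb5, Hoxb6, Hoxc5 and Hoxc6, which act in the neural crest, lateral plate and spinal cord of the trunk, differed from control by -0.26 to 0.76 log2. Hoxb5 was called present on 1 array of each single-isoform group and nowhere else. Of these, only Hoxc5 in Sall4-depleted cells (0.57 log2) and Hoxb6 in Sall4b-only cells (-0.26 log2, with no array called present) had arrays apart from the control arrays.

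Among the posterior genes, Hoxd9, Hoxb13 and Hoxb9 were low in Sall4b-only cells and Hoxd10 in Sall4-depleted cells. Hoxd9, a gene of the lumbar region and the limb, had log2 intensities of 10.32 and 10.30 in Sall4-depleted cells, 10.30 and 10.29 in Sall4a-only cells, 9.59 and 9.73 in Sall4b-only cells and 10.50 and 10.78 in control cells. Both Sall4b-only arrays lay below the 6 others, and the Sall4-depleted and Sall4a-only arrays lay between them and the control arrays. Hoxb13, a gene of the tail bud and the prostate, had log2 intensities of 8.73 and 8.37 in Sall4-depleted cells, 8.19 and 7.74 in Sall4a-only cells, 7.21 and 7.31 in Sall4b-only cells and 8.64 and 8.13 in control cells. Again both Sall4b-only arrays were below all 6 others.

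Hoxb9, which acts in the patterning of the ribs, had log2 intensities of 11.79 and 11.63 in Sall4-depleted cells, 9.76 and 11.48 in Sall4a-only cells, 10.04 and 10.62 in Sall4b-only cells and 11.60 and 11.43 in control cells. Both Sall4b-only arrays and 1 Sall4a-only array were low, and the second Sall4a-only array lay with the control arrays. Hoxd10, a gene of lumbar motor neurons and the hindlimb, had log2 intensities of 7.04 and 7.20 in Sall4-depleted cells, 8.34 and 8.02 in Sall4a-only cells, 8.62 and 7.81 in Sall4b-only cells and 8.23 and 7.95 in control cells. Here the 2 Sall4-depleted arrays stood below the 6 others, and the single-isoform and control arrays overlapped. The neighbours Hoxd10, Hoxd9 and Hoxd8 thus had the lowest group mean in 2 different groups, Sall4-depleted for Hoxd10 and Sall4b-only for Hoxd9 and Hoxd8, and Hoxd8 was highest where Hoxd10 was lowest.

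Hoxd13, a digit gene, had log2 intensities of 7.70 and 7.89 in Sall4-depleted cells, 7.90 and 8.10 in Sall4a-only cells, 8.43 and 7.90 in Sall4b-only cells and 7.23 and 7.87 in control cells. All 4 single-isoform arrays were above the control arrays. Hoxc10, a gene of the lumbar spinal cord, had log2 intensities of 5.78 and 6.01 in Sall4-depleted cells, 7.24 and 5.88 in Sall4a-only cells, 6.08 and 5.91 in Sall4b-only cells and 6.28 and 6.48 in control cells. A single Sall4a-only array was the highest of the 8, and its replicate was among the low ones. Hoxc13, known for its role in hair, had log2 intensities of 9.26 and 9.44 in Sall4-depleted cells, 9.48 and 9.25 in Sall4a-only cells, 9.22 and 9.44 in Sall4b-only cells and 9.25 and 9.31 in control cells, which overlapped in every pair of groups.

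Hoxa10, a gene of the lumbar region and the uterus, had log2 intensities of 9.21 and 7.92 in Sall4-depleted cells, 8.61 and 8.66 in Sall4a-only cells, 8.30 and 8.97 in Sall4b-only cells and 8.82 and 9.03 in control cells. Its Sall4-depleted arrays were the highest and the lowest of the 8. Hoxc9, a thoracic spinal cord gene, had log2 intensities of 6.86 and 6.53 in Sall4-depleted cells, 7.01 and 6.80 in Sall4a-only cells, 6.59 and 6.56 in Sall4b-only cells and 6.81 and 6.83 in control cells. It was called present on both control arrays and on no Sall4b-only array, and its Sall4b-only arrays lay below the control arrays. Hoxa9 and Hoxa11, which act in blood and in the limb, differed from control by -0.76 to -0.22 log2, with arrays overlapping in every comparison. Their 2 control arrays were far apart, at 5.24 and 6.55 log2 for Hoxa9 and at 5.39 and 6.99 for Hoxa11.

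**Figure D2:**
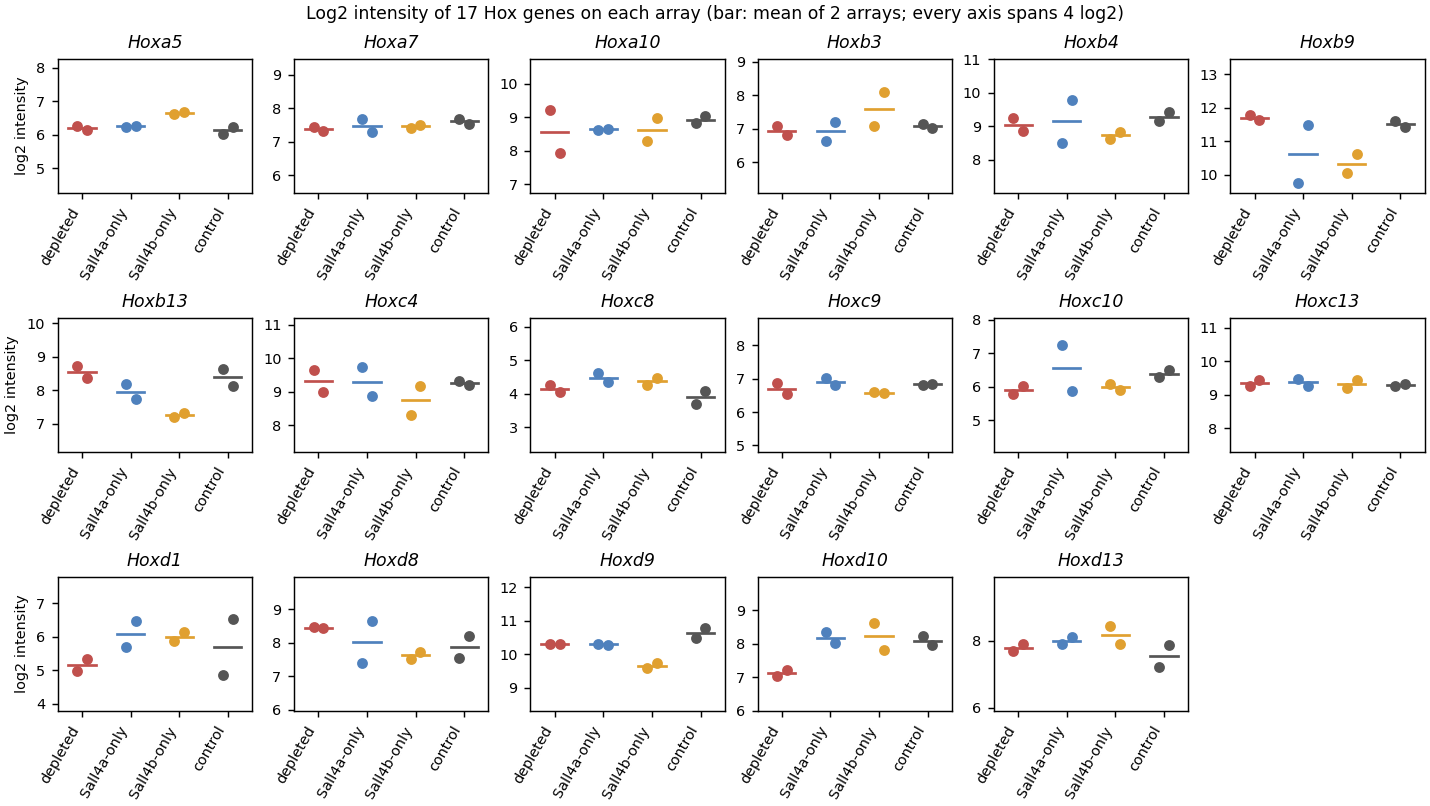
Log2 intensity of 17 Hox genes (1 panel each) on the 2 arrays of each group, with a bar at the group mean. Every vertical axis spans 4 log2 around the gene's median; Hoxd9 and Hoxb13 are lowest on both Sall4b-only arrays, and Hoxd10 on both Sall4-depleted arrays.

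In Sall4-depleted cells set against control cells, Hoxd10 had the smallest p of the Hox genes. It averaged 7.12 ± 0.11 log2 in Sall4-depleted cells and 8.09 ± 0.19 log2 in control cells (SD of 2 arrays), a difference of -0.97 log2 (SE 0.28, adjusted p = 0.499), or 1.96-fold lower. Hoxd9 differed by -0.33 log2 (SE 0.13, adjusted p = 0.613), and Hoxd8 by 0.58 log2 (SE 0.42, adjusted p = 0.835). None of the 27 genes passed the adjusted threshold of 0.05 (limma's moderated test with Benjamini-Hochberg adjustment over all genes), against 0% of all genes tested, and 2 had an unadjusted p under 0.05, against 7.92% of all genes. Both were lower, as were 3.81% of all genes. The arrays of the groups did not overlap for 7 of 27, against 41.1% of all genes, and the median difference was -0.09 log2 for the Hox genes and 0.0038 for all genes. All 6 tested anterior genes lay below control through the probe sets followed, at -0.54 to -0.02 log2, but none without overlap, and 49.2% of all genes lay below control. The direction depended on the probe set for Hoxb3, whose second passing probe set read 0.26 log2. A second passing probe set of Hoxa3 read -0.40 log2. The 11 posterior genes had a median of -0.33 log2, with 7 below control. In these arrays the summed intensity of 21 tested fibroblast and feeder markers was 71888 to 77424 in Sall4-depleted cells, against 49724 to 58771 in control cells, and their part in the Hox values was not tested.

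In Sall4a-only cells set against control cells, the posterior Hoxd9 differed by -0.34 log2 (SE 0.13, adjusted p = 0.547). The central Hoxc8 averaged 4.48 ± 0.18 log2 in Sall4a-only cells and 3.89 ± 0.27 log2 in control cells (SD of 2 arrays). These values are a description with no test, since the gene is filter-dependent and 1 Sall4a-only array and both control arrays were not called present. Hoxb9 differed by -0.89 log2 (SE 0.53, adjusted p = 0.690), with 1 array low and 1 not. None of the 27 genes passed (limma), against 0.00713% of all genes, which is a single gene, and 2 had an unadjusted p under 0.05, Hoxd9 and the filter-dependent Hoxc8, against 8.84%. The arrays did not overlap for 5 of 27, the filter-dependent Hoxa5 and Hoxc8 among them, against 30% of all genes. The median difference was 0.02 log2 for the Hox genes and 0.04 for all genes. The 7 genes of cluster C all lay above control, by 0.02 to 0.59 log2, but only Hoxc8 without overlap. The 11 posterior genes had a median of -0.28 log2, with 6 below control, against 43.4% of all genes below control.

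In Sall4b-only cells set against control cells, the posterior genes Hoxb9, Hoxb13 and Hoxd9 lay about 1 log2 lower without overlap. The central genes Hoxa5 and Hoxc8 lay higher. The posterior Hoxd13 also lay higher without overlap, by 0.62 log2 (SE 0.27, limma adjusted p = 0.344). Hoxd9 averaged 9.66 ± 0.10 log2 in Sall4b-only cells and 10.64 ± 0.20 log2 in control cells, a difference of -0.98 log2 (SE 0.13, adjusted p = 0.104), or 1.97-fold lower. Hoxb13 averaged 7.26 ± 0.07 log2 in Sall4b-only cells and 8.39 ± 0.36 log2 in control cells, a difference of -1.12 log2 (SE 0.24, adjusted p = 0.172), or 2.18-fold lower. Hoxb9 differed by -1.18 log2 (SE 0.53, adjusted p = 0.360), with a wider error, and its widely spaced Sall4a-only arrays enter the shared estimate of spread. Hoxa5 averaged 6.66 ± 0.04 log2 in Sall4b-only cells and 6.13 ± 0.14 log2 in control cells, and Hoxc8 averaged 4.37 ± 0.15 log2 in Sall4b-only cells and 3.89 ± 0.27 log2 in control cells. Neither was called present on a control array and both entered the test only through groups where they were high, so these values are a description with no test.

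None of these passed the threshold (limma), and the smallest adjusted p of any Hox gene in any comparison was the 0.104 of Hoxd9. For this comparison 0.00713% of all genes passed, a single gene. An unadjusted p under 0.05 was reached by 4 of 27 Hox genes, against 15.1% of all genes. These were Hoxd9 and Hoxb13, present on all 8 arrays, and the filter-dependent Hoxa5 and Hoxc8. The arrays did not overlap for 13 of 27 Hox genes, against 51.7% of all genes. Split by direction, 10 of 27 lay wholly below control, against 19.5% of all genes, and 3 lay wholly above, against 32.2%. The 3 were the filter-dependent Hoxa5 and Hoxc8, and Hoxd13, which was present on all 8 arrays. Among the 10, Hoxd3 passed the filter only through 1 control and 1 Sall4-depleted array, in groups where it was higher than in Sall4b-only cells. Hoxa7, Hoxb6 and Hoxc9, also among the 10, were called present on no Sall4b-only array. Over all 33 Hox genes with no filter, 11 lay wholly below, against 18.1% of all 18193 genes, and 6 wholly above, against 29.9%. The median difference was -0.18 log2 for the tested Hox genes and 0.06 for all genes. By position, 8 of 11 posterior genes were below control, against 40.8% of all genes, with a median of -0.29 log2. That median was close to the -0.28 of Sall4a-only cells and the -0.33 of Sall4-depleted cells, which share the control arrays. On single arrays the posterior medians were -0.02 and -0.29 in Sall4-depleted cells, and -0.10 and 0.10 in control cells. The 6 anterior genes had a median of 0.13 and the 10 central genes one of -0.18. By cluster, the medians were -0.19 for A, -0.23 for B, 0.04 for C and -0.01 for D. On the same arrays the summed intensity of 16 trophoblast markers was 33861 to 34750 in Sall4b-only cells, against 51664 to 64164 in control cells, and its part in the Hox values was not tested.

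**Figure D3:**
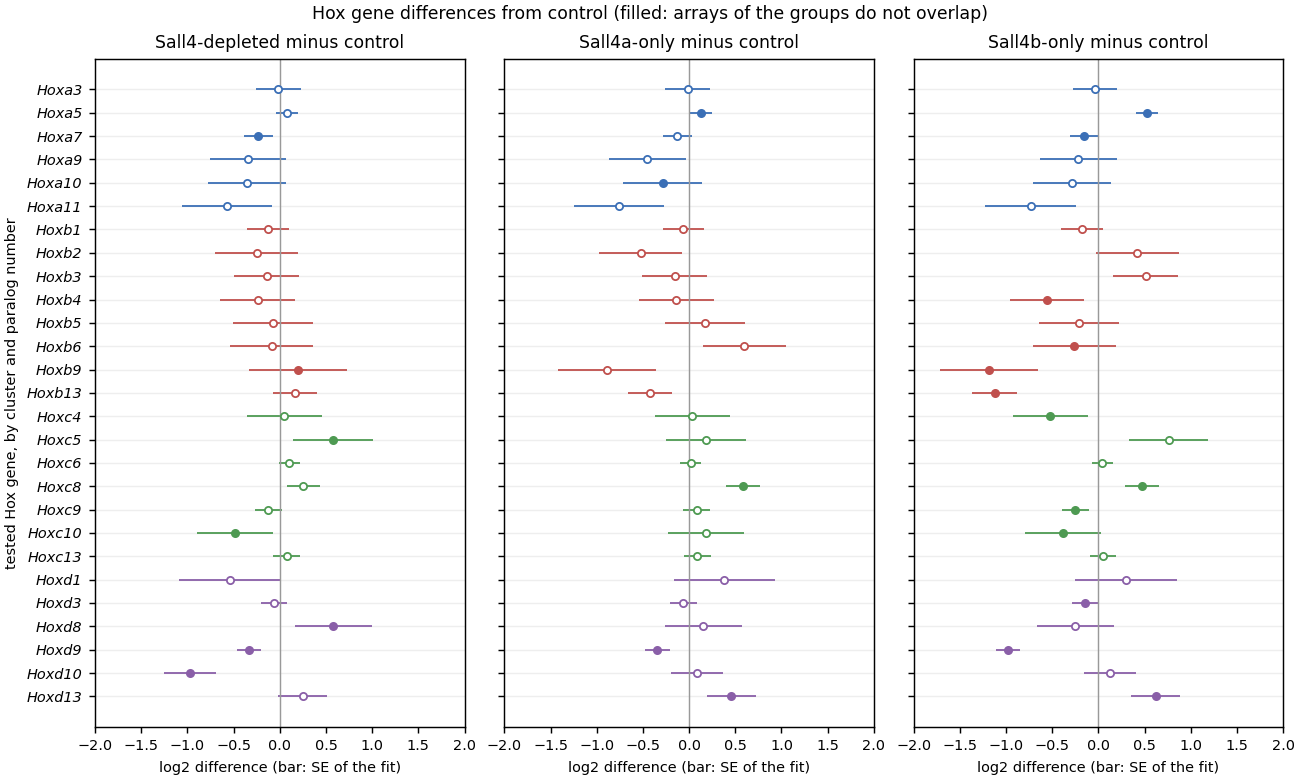
Log2 difference of each of the 27 tested Hox genes from control (bar: SE of the fit) in Sall4-depleted, Sall4a-only and Sall4b-only cells, coloured by cluster. Filled points are genes whose arrays do not overlap with the control arrays: 7, 5 and 13 genes; no difference passed the adjusted threshold.

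These 3 comparisons share the control arrays, so their values are not independent of each other. The single-isoform groups were also set against Sall4-depleted cells, in 2 comparisons that share the same Sall4-depleted arrays. Those arrays were the low ones for Hoxd10, so its values in both comparisons rest on them. It differed by 1.06 log2 (SE 0.28, adjusted p = 0.445) in Sall4a-only cells and by 1.10 log2 (SE 0.28, adjusted p = 0.402) in Sall4b-only cells, and all 4 single-isoform arrays lay above both Sall4-depleted arrays. Neither difference passed. In Sall4a-only cells against Sall4-depleted cells none of 27 Hox genes passed (limma), against 0% of all genes. An unadjusted p under 0.05 was reached by 2 (Hoxd10, and Hoxb13 at -0.59 log2), against 7.81%. The arrays did not overlap for 6, the filter-dependent Hoxc8 among them, against 35.2%. The median difference was 0.01 log2 for the Hox genes and 0.03 for all genes. Without the second Sall4a-only array, Hoxb9 (-1.95 log2, adjusted p = 0.0337) and Hoxc10 (1.34 log2, adjusted p = 0.0315) did pass in this comparison (limma), against 2.05% of all genes, with the lone Sall4a-only array assumed to vary like the other groups.

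In Sall4b-only cells against Sall4-depleted cells, Hoxb13 differed by -1.29 log2 (SE 0.24, adjusted p = 0.271), Hoxb9 by -1.38 log2 (SE 0.53, adjusted p = 0.553) and Hoxd9 by -0.65 log2 (SE 0.13, adjusted p = 0.307). Hoxa5, not called present on either Sall4-depleted array, averaged 6.66 ± 0.04 log2 in Sall4b-only cells and 6.21 ± 0.09 log2 in Sall4-depleted cells, given with no test as above. None of the 27 passed (limma), against 0% of all genes. An unadjusted p under 0.05 was reached by 5, the filter-dependent Hoxa5 among them, against 8.86%. The arrays did not overlap for 11, the filter-dependent Hoxa5 and Hoxc8 among them, against 56.7%. The median difference was -0.03 log2 for the Hox genes and 0.06 for all genes. Hoxd8 differed by -0.83 log2 without overlap (adjusted p = 0.617), and a second probe set for it that passed the filter differed by -0.60 log2.

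Set directly against each other, Sall4a-only cells had mean Hoxd9 and Hoxb13 signals above those of Sall4b-only cells. Hoxd9 differed by 0.63 log2 (SE 0.13, adjusted p = 0.559) and Hoxb13 by 0.70 log2 (SE 0.24, adjusted p = 0.792). None of the 27 passed (limma), against 0% of all genes. An unadjusted p under 0.05 was reached by 3 genes, against 5.85% of all genes. They were Hoxd9, Hoxb13 and the filter-dependent Hoxa5, which was present on no Sall4a-only array. The arrays did not overlap for 6 of 27, Hoxa5 among them, against 34.1%. The median difference was 0.08 log2 for the Hox genes and -0.03 for all genes. In the test for any difference among the 4 groups, none of the 27 passed, against 0.0143% of all genes, or 2 genes, and 4 had an unadjusted p under 0.05, Hoxa5 again among them, against 10.8%; the smallest adjusted p was 0.234, for Hoxd9. An exact permutation test of 2 arrays against 2 cannot go below p = 0.333, so it could not reach 0.05 for any pair of groups.

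Summed levels of the markers of some other cell types also differed between groups on the same arrays. The summed intensity of the fibroblast and feeder markers was 71888 to 77424 in Sall4-depleted cells, 27353 to 71905 in Sall4a-only cells, 45972 to 57156 in Sall4b-only cells and 49724 to 58771 in control cells. Of 25 such markers on the array 21 were tested, and Dcn, Lum, Fap and Col6a2 were not detected. The Sall4a-only array with low Hoxb9 and high Hoxc10 was also the one with the low fibroblast sum. Both Sall4b-only arrays were low for Hoxb9 too, and their fibroblast sums of 45972 and 57156 overlapped with the control range. The sum hides markers that moved in opposite directions. By marker, 6 of 21 lay wholly above control in Sall4b-only cells, against 32.2% of all genes, and 8 wholly below, against 19.5%. Col3a1 and Col5a2 were among the 8. For 16 of 17 trophoblast markers tested, with Elf5 not detected, the sum was 36500 to 48762 in Sall4-depleted cells, 62701 to 68365 in Sall4a-only cells, 33861 to 34750 in Sall4b-only cells and 51664 to 64164 in control cells. Set against control, 11 of these 16 had an unadjusted p under 0.05 in Sall4b-only cells, all lower, against 5.6% of all genes, and 5 of 16 did in Sall4-depleted cells, all lower, against 3.81%. In Sall4b-only cells against control, the other lists gave 1 higher and 4 lower of 21 fibroblast, 2 higher and 0 lower of 14 pluripotency, 0 higher and 2 lower of 9 mesoderm, 5 higher and 1 lower of 12 neuroectoderm, and 0 higher and 1 lower of 13 primitive endoderm markers at that unadjusted threshold, against 9.46% of all genes higher and 5.6% lower. The mesoderm sum, which shares Hand1 with trophoblast, was 1640 to 1909 in Sall4b-only cells, against 3128 to 3282 in control cells. The neuroectoderm sum was 6046 to 6457 in Sall4b-only cells and 6889 to 7057 in Sall4-depleted cells, against 5667 to 5925 in control cells. In Sall4b-only cells the pluripotency sum also lay above control, and the primitive endoderm sum overlapped with control. No marker of these lists passed the adjusted threshold in any comparison, and their part in the Hox values was not tested.

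**Figure D4:**
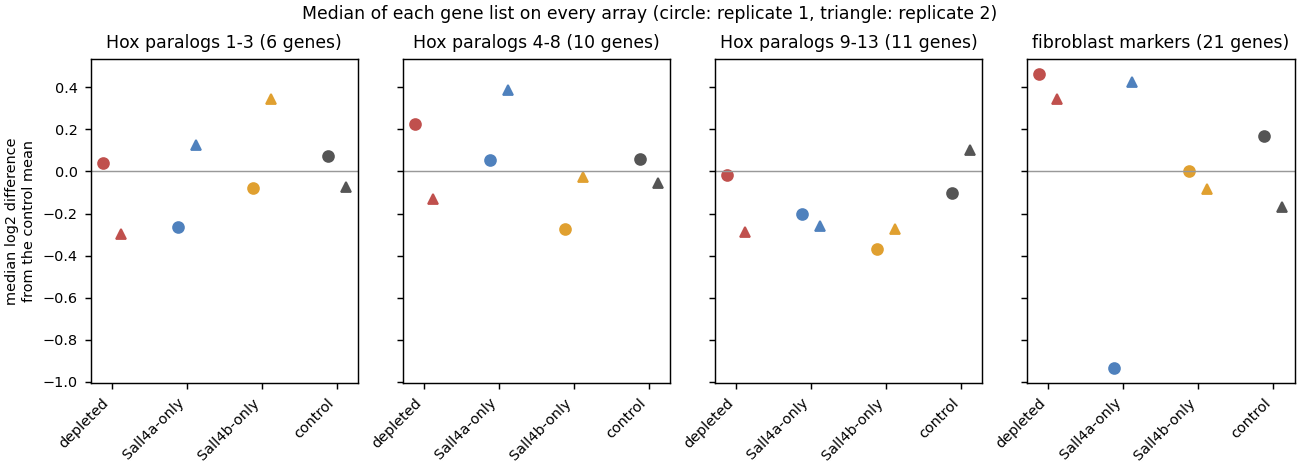
Median log2 difference from the control mean of the anterior, central and posterior Hox genes and of the fibroblast markers on each array (circle, replicate 1; triangle, replicate 2). The posterior medians are -0.02 and -0.29 on the Sall4-depleted arrays, -0.20 and -0.26 on the Sall4a-only arrays and -0.37 and -0.28 on the Sall4b-only arrays; the fibroblast medians are -0.94 and 0.43 on the Sall4a-only arrays.

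The partners of the Hox proteins gave no call either. Of 8 TALE homeobox genes, all tested, none passed in any of the 6 comparisons, and no comparison had more than 1 higher and 1 lower at an unadjusted p under 0.05. Their median difference from control was 0.08 log2 in Sall4-depleted cells, 0.04 in Sall4a-only cells and 0.19 in Sall4b-only cells. Pbx4, a cofactor that binds DNA with Hox proteins, averaged 10.01 ± 0.0053 log2 in Sall4-depleted cells and 9.44 ± 0.22 log2 in control cells (SD of 2 arrays), a difference of 0.57 (SE 0.17, adjusted p = 0.504). Pknox1, a partner of Pbx proteins, averaged 8.95 ± 0.0043 log2 in Sall4b-only cells and 9.61 ± 0.08 log2 in control cells (SD of 2 arrays), a difference of -0.66 (SE 0.21, adjusted p = 0.252). Its relative Pknox2 averaged 9.48 ± 0.09 log2 in Sall4b-only cells and 8.53 ± 0.02 log2 in control cells (SD of 2 arrays), a difference of 0.95 (SE 0.39, adjusted p = 0.334). Meis1, the cofactor best known from blood stem cells, averaged 7.87 ± 0.07 log2 in Sall4-depleted cells, 7.72 ± 0.34 in Sall4a-only cells, 7.69 ± 0.28 in Sall4b-only cells and 7.78 ± 0.0061 in control cells.

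Of 8 ParaHox and Evx genes, which are close relatives of the Hox genes outside or at the end of the clusters, 3 were tested and none passed, with Cdx2 the only one at an unadjusted p under 0.05 in any comparison. Their median difference from control was 0.10 log2 in Sall4-depleted cells, 0.24 in Sall4a-only cells and 0.02 in Sall4b-only cells. Cdx2, an activator of Hox genes in the trunk and a trophoblast factor, averaged 9.72 ± 0.39 log2 in Sall4a-only cells and 8.16 ± 0.64 log2 in control cells (SD of 2 arrays), a difference of 1.55 (SE 0.36, adjusted p = 0.347). It was higher on both Sall4a-only arrays than on both control arrays, without passing. Evx1, a primitive streak gene next to the A cluster, averaged 5.94 ± 0.14 log2 in Sall4b-only cells and 5.57 ± 0.18 log2 in control cells (SD of 2 arrays), a difference of 0.37 (SE 0.16, adjusted p = 0.357). Gsx1 averaged 5.45 ± 0.15 log2 in Sall4a-only cells and 5.28 ± 0.06 log2 in Sall4-depleted cells, where it was not called present. Evx2, which lies beside Hoxd13, was not detected.

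The genes around the clusters were looked at as a set of 24, each within 5 genes of a Hox gene on the same chromosome and all tested. None passed in any comparison, with 3 higher and 2 lower at an unadjusted p under 0.05 in Sall4b-only cells against control, where 9.46% of all genes were higher and 5.6% lower. The medians of their differences from control were 0.01 log2 in Sall4-depleted cells, 0.04 in Sall4a-only cells and 0.06 in Sall4b-only cells. Skap2, an adaptor protein gene near the A cluster, averaged 11.07 ± 0.03 log2 in Sall4b-only cells and 10.67 ± 0.01 log2 in control cells (SD of 2 arrays), a difference of 0.40 (SE 0.12, adjusted p = 0.236). Cbx5, which encodes a heterochromatin protein near the C cluster, averaged 13.30 ± 0.09 log2 in Sall4b-only cells and 12.94 ± 0.08 log2 in control cells (SD of 2 arrays), a difference of 0.36 (SE 0.12, adjusted p = 0.284). Nfe2l1, a stress transcription factor near the B cluster, averaged 12.63 ± 0.0071 log2 in Sall4b-only cells and 12.97 ± 0.05 log2 in control cells (SD of 2 arrays), a difference of -0.35 (SE 0.12, adjusted p = 0.291).

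Of 21 retinoic acid genes 19 were tested, and none passed, with no more than 2 in either direction at an unadjusted p under 0.05 in any comparison. Their median difference from control was -0.09 log2 in Sall4-depleted cells, -0.07 in Sall4a-only cells and -0.05 in Sall4b-only cells. Rarb, a retinoic acid receptor that is itself induced by retinoic acid, averaged 6.70 ± 0.33 log2 in Sall4a-only cells and 5.94 ± 0.23 log2 in Sall4-depleted cells (SD of 2 arrays), a difference of 0.76 (SE 0.20, adjusted p = 0.445). Cyp26a1, the enzyme that degrades retinoic acid, averaged 7.01 ± 0.03 log2 in Sall4-depleted cells, 6.98 ± 1.34 in Sall4a-only cells, 7.35 ± 0.76 in Sall4b-only cells and 7.32 ± 0.11 in control cells, so its groups differed by less than the spread between the Sall4a-only arrays. Aldh1a1, which makes retinoic acid, averaged 5.19 ± 0.08 log2 in Sall4b-only cells and 7.49 ± 0.10 log2 in Sall4-depleted cells (SD of 2 arrays). That is at least 4.90-fold lower (limma adjusted p = 0.213), since no Sall4b-only array was called present. Aldh1a1 averaged 5.29 ± 0.72 log2 in Sall4a-only cells and 5.92 ± 0.10 log2 in control cells, so its Sall4-depleted mean was the highest. Rdh10, which carries out the preceding oxidation, averaged 11.63 ± 0.13 log2 in Sall4-depleted cells and 12.22 ± 0.23 log2 in control cells (SD of 2 arrays), a difference of -0.59 (SE 0.20, adjusted p = 0.578).

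All 35 Polycomb and Trithorax genes on the array were tested, were called present on every array, and none passed. In Sall4b-only cells against control 5 of them were higher and 1 lower at an unadjusted p under 0.05, against 9.46% and 5.6% of all genes. Their median difference from control was 0.0097 log2 in Sall4-depleted cells, 0.0018 in Sall4a-only cells and 0.13 in Sall4b-only cells. Phc1, a subunit of Polycomb repressive complex 1, averaged 12.51 ± 0.29 log2 in Sall4b-only cells and 11.77 ± 0.32 log2 in control cells (SD of 2 arrays), a difference of 0.73 (SE 0.20, adjusted p = 0.212). Ezh2, the histone methyltransferase of Polycomb repressive complex 2, averaged 12.35 ± 0.18 log2 in Sall4b-only cells and 11.87 ± 0.17 log2 in control cells (SD of 2 arrays), a difference of 0.48 (SE 0.14, adjusted p = 0.229). Cbx2, a chromobox subunit, averaged 9.32 ± 0.05 log2 in Sall4a-only cells and 9.73 ± 0.01 log2 in Sall4b-only cells (SD of 2 arrays), a difference of -0.41 (SE 0.12, adjusted p = 0.732). Pcgf6, a subunit of a variant complex, averaged 10.96 ± 0.11 log2 in Sall4a-only cells and 11.43 ± 0.10 log2 in Sall4b-only cells (SD of 2 arrays), a difference of -0.47 (SE 0.14, adjusted p = 0.732).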

How the data were processed

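RNA from 8 samples of CJ7 ES cells, amplified and biotin-labelled per the labels' protocols, was measured on 8 one-colour oligonucleotide arrays. The authors deposited an intensity per probe set, made with RMA per the submitters' processing notes, with a present, marginal or absent call by a method the labels do not name. The 3 deposited tables held 0 differing values. Of 45101 probe sets, 64 array controls were left out, and genes were named from the platform annotation, in which 34958 probe sets have 1 symbol, 932 several and 9211 none. Each intensity was converted to log2 here. No file gives a scan time or other batch.

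Groups came from the sample titles. A gene was kept when called present on 2 or more arrays, through its brightest passing probe set, giving 14027 genes. limma 3.58.1 in R 4.3.3 (statmod 1.5.0) fitted 4 group means over all 8 arrays, leaving 4 residual degrees of freedom; 6 comparisons and a test of any difference were adjusted by Benjamini-Hochberg over all genes at 0.05. The scripts were tested on simulated data. Values on every array were given for Hox genes with an unadjusted p under 0.05 anywhere, present on all 8 arrays, or present on all arrays of a group and none of another; other lists name up to 4 members with the smallest p, plus Cdx2, Meis1, Cyp26a1, Rarb, Evx1 and Evx2; a further gene is not reported here. Evx1 and Cdx2 also stand in marker lists. Alternatives changed the filter, the normalization, the probe set per gene, the variance prior, the arrays fitted and the replicate block. The members and lists were chosen with earlier results of these data known. Replicate numbers did not pair the arrays across all groups: correlations of same-numbered deviations ran from -0.12 to 0.57 over the 6 pairs of groups. The 0.57 was between control and Sall4-depleted cells, and the next highest was 0.20. A replicate effect shared by those 2 groups alone was not modelled: the main fit had no replicate term, and the replicate block spanned all 4 groups.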

Additional observations from a re-analysis of the deposited data

How the results depend on the processing

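Under every alternative run for the 6 comparisons and the test of any difference, 0 Hox genes passed the adjusted threshold, with 1 exception: without the second Sall4a-only array, 2 genes passed between Sall4a-only and Sall4-depleted cells, Hoxb9 and Hoxc10, so that leaving out each array in turn gave 0 to 2 genes there. The lone Sall4a-only array was assumed to vary like the other groups, and the cause was not tested. With the replicate number as a replicate block, 0 Hox genes passed in all 7 tests. None of the Hox differences with an unadjusted p under 0.05 changed direction, but most alternatives could not have changed it. The arrays of the groups compared did not overlap for any of these differences, so leaving out an array could not reverse them. Each of these genes also had a single passing probe set. Hoxd9 in Sall4b-only cells against control ran from -1.12 to -0.84 log2 (adjusted p = 0.0520 to 0.550 over 19 alternatives), Hoxb13 there from -1.38 to -0.87 (0.0838 to 0.687), and Hoxd10 in Sall4-depleted cells against control from -1.11 to -0.83 (0.259 to 1.00). Counts over all genes depended on the Sall4a-only arrays. Without both of them, 121 genes differed between Sall4b-only and control cells (52 higher, 69 lower) in place of 1, and 66 between Sall4b-only and Sall4-depleted cells in place of 0. Without the second alone, 110 differed between Sall4a-only and control cells in place of 1, 287 between Sall4a-only and Sall4-depleted cells and 47 between Sall4a-only and Sall4b-only cells in place of 0, and 178 in the test of any difference in place of 2 (49 without the first). A trended and robust prior gave 17 genes for Sall4b-only against control, the 2 groups alone 14, quantile normalization or median centring 7, and the most variable probe set 5. The 2 groups alone gave 61 genes for Sall4b-only against Sall4-depleted cells. None of the Hox genes was among those counts except Hoxb9 and Hoxc10 among the 287. With 2 arrays a group, Hox genes near the detection limit, such as Hoxc8 and Hoxa5, have differences that depend on signal close to background.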

Other observations

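Of 3 antisense or overlapping transcripts of the clusters on the array, Hoxa11os alone was detected on 2 or more arrays, and it was looked at after its values were seen. It averaged 5.32 ± 0.17 log2 in Sall4-depleted cells, 5.31 ± 0.48 in Sall4a-only cells, 5.05 ± 0.08 in Sall4b-only cells and 5.23 ± 0.06 in control cells (SD of 2 arrays). Its difference in Sall4b-only cells against Sall4-depleted cells was -0.27 log2 (SE 0.23, adjusted p = 0.757, limma), and the array does not say on which strand the neighbouring Hoxa11 signal arises.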
